A study of Mus musculus with 72 samples.

Results

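The transcripts of the 3 Period genes, Per1, Per2 and Per3, and the 2 cryptochrome genes, Cry1 and Cry2, were followed in the suprachiasmatic nucleus (SCN), the hypothalamic nucleus that holds the master clock of mammals. These 5 genes were chosen by name, as the repressor arm of the clock, from the 24883 rows of each expression table. Male C57BL/6 mice, 8 weeks old and housed singly during the intervention, received a control diet (Ctrl) or a diet without the amino acid tryptophan (-Trp), for 2 weeks. They were kept in cycles of 12 h light and 12 h darkness (LD) or in constant darkness (DD), which gives 2 control groups, Ctrl LD and Ctrl DD, and the 2 depleted groups -Trp LD and -Trp DD. Polyadenylated RNA of the SCN was sequenced from 3 mice at each of 6 times, 0, 4, 8, 12, 16 and 20 h (ZT in LD, CT in DD), so each group has 18 libraries. The study asked whether dietary tryptophan and light together set rhythms in the SCN.

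In the mammalian clock, CLOCK and BMAL1 bind E-boxes and drive transcription of the Period and cryptochrome genes, and the PER and CRY proteins return to the nucleus and repress that drive. Per1 and Per2 also respond to light, in part through CREB at cyclic AMP response elements (CRE), which is one way in which a light signal resets the SCN. D-boxes, bound by DBP, TEF, HLF and the repressor NFIL3, add a further input. PER1 and PER2 carry the negative feedback together with CRY1 and CRY2, while PER3 has a smaller part in keeping the rhythm.

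In GENCODE release M21 (GRCm38, also called mm10) all 5 are protein-coding genes. Per1 lies on chr11:69095217-69109960 (plus strand), Per2 on chr1:91415982-91459324 (minus), Per3 on chr4:151003652-151044665 (minus), Cry1 on chr10:85131700-85185064 (minus) and Cry2 on chr2:92403646-92434043 (minus). RefSeq promoter windows, from 250 bases before to 50 bases after a start site, were at hand for 4 of the 5 genes, and Per2 is named only. The stretches around letter matches to the clock motifs in these windows are shown, and whether such matches drive the members was not tested. All lie upstream of the start site on GRCm38.p6, read 5′ to 3′ on the gene's strand, with the motif in capitals.
Cry1, chr10:85185079-85185163, minus strand: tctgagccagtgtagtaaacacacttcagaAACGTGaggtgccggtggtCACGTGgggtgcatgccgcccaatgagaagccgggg
Cry2, chr2:92434200-92434265, minus strand: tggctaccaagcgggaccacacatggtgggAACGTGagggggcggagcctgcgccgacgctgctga
Per1, first window, chr11:69098753-69098818, plus strand: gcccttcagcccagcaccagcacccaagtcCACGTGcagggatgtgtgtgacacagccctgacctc
Per1, second window, chr11:69099990-69100055, plus strand: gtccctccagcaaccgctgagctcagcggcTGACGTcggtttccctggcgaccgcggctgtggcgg
Per3, chr4:151044786-151044900, minus strand: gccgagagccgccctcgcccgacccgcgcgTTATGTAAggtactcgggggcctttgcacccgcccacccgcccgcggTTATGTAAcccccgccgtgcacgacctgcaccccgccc

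Both strands of each window were searched. The E-box CACGTG stood at -60 in Cry1 and at -166 in the first Per1 window, and is present in 7.15% of all 32851 promoter windows. The E'-box CACGTT, which reads AACGTG on the other strand, stood at -79 in Cry1 and at -166 in Cry2 and is present in 4.68% of windows. The D-box TTATGTAA occurred in Per3 alone of the windows searched here, at -205 and at -158, and is present in 0.938% of all windows. Only this exact spelling was counted. The first Per1 window holds the near spelling TTATGCAA, for which no share of all windows was taken. The CRE core TGACGT stood at -132 in the second Per1 window and is present in 7.51% of windows, while the full CRE TGACGTCA, which contains that core, is in none of the members' windows and in 1.79% of all. No 2 of the matches overlapped. Both Per1 windows lie inside the gene's GENCODE span, since Per1 has start sites downstream of its first one. A match of letters is not evidence of binding.

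Expression is given as FPKM, fragments scaled by transcript length and by all mapped fragments of a library, so the depth of each library is unknown and precision comes from the spread between mice. A copy of the study's own list of oscillating genes, which was cut short, let 1987 genes of Ctrl LD and 135 of Ctrl DD be compared. In every gene compared, the 36 control columns used here equal the columns of that list, but under another group or time in their column names. Members were therefore placed in that shifted order, with the 36 -Trp libraries placed by continuing the shift, and the result by column name is given beside it. Summed FPKM fell into 2 ranges, 403066 to 524705 in all 36 LD libraries and in 1 DD library (-Trp DD at CT4, replicate 2), and 317417 to 353587 in the other 35 DD libraries, so this split and light cannot be told apart. Summed FPKM of 10 SCN markers ran from 48.3 to 1040. By medians, Avp alone made up most of this sum, which therefore mainly follows 1 gene. On Ctrl the Avp medians were 483 FPKM (LD) and 362 (DD), beside 541 and 410 for the sum. For -Trp they were 327 and 360, beside 370 and 420. The lowest values of Avp and of Six6, another SCN marker, in any library were 18.5 and 0.0558 FPKM. The lowest sums were 48.3 in Ctrl DD at CT12, replicate 1, and 57.7 in -Trp LD at ZT20, replicate 3. The first of these also held the highest oligodendrocyte marker sum of its group (3282). It had the lowest Per2 and Cry1 and the highest Cry2 of the 18 Ctrl DD libraries. The second had the highest Per2 and Cry2 of the 18 -Trp LD libraries. In such tissue pieces fewer SCN cells and less RNA per cell cannot be told apart.

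Cry2, whose product represses CLOCK and BMAL1, was the most abundant of the 5 transcripts in every group. On Ctrl its FPKM ran from 20.99 through a median of 25.5 to 28.6 in LD and from 20.7 through 24.8 to 30.7 in DD. On -Trp it ran from 24.2 through 27.2 to 32.3 in LD and from 18.6 through 22.9 to 25.8 in DD. It was above every other member in all 18 libraries of each group, with no overlap of ranges. Per2 was the least abundant, at 3.41 ± 0.385 FPKM in Ctrl LD and 3.41 ± 0.476 in -Trp LD, and at 5.71 ± 1.30 in Ctrl DD and 5.65 ± 1.27 in -Trp DD (mean ± SD, n = 18 each).

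The 3 genes between them changed places between LD and DD. In Ctrl LD the mean FPKM was 8.48 ± 1.08 for Cry1, 8.40 ± 1.19 for Per1 and 4.69 ± 0.743 for Per3. Cry1 and Per1 did not differ beyond their spread there, with Cry1 above Per1 in 12 of 18 libraries. In -Trp LD Per1 stood at 9.61 ± 1.23 and above Cry1, at 8.47 ± 1.003, in 16 of 18 libraries, and their ranges overlapped. In DD Per1 (11.5 ± 1.82 on Ctrl, 10.9 ± 1.78 on -Trp) and Per3 (11.2 ± 1.87 and 10.3 ± 1.98) were neighbours whose ranges overlapped, with Per1 higher in 12 and in 11 of 18 libraries. Cry1 (6.39 ± 0.968 and 6.01 ± 0.728) and Per2 were the next such pair in DD, with Cry1 higher in 13 and in 11 of 18 libraries.

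**Figure D1:**
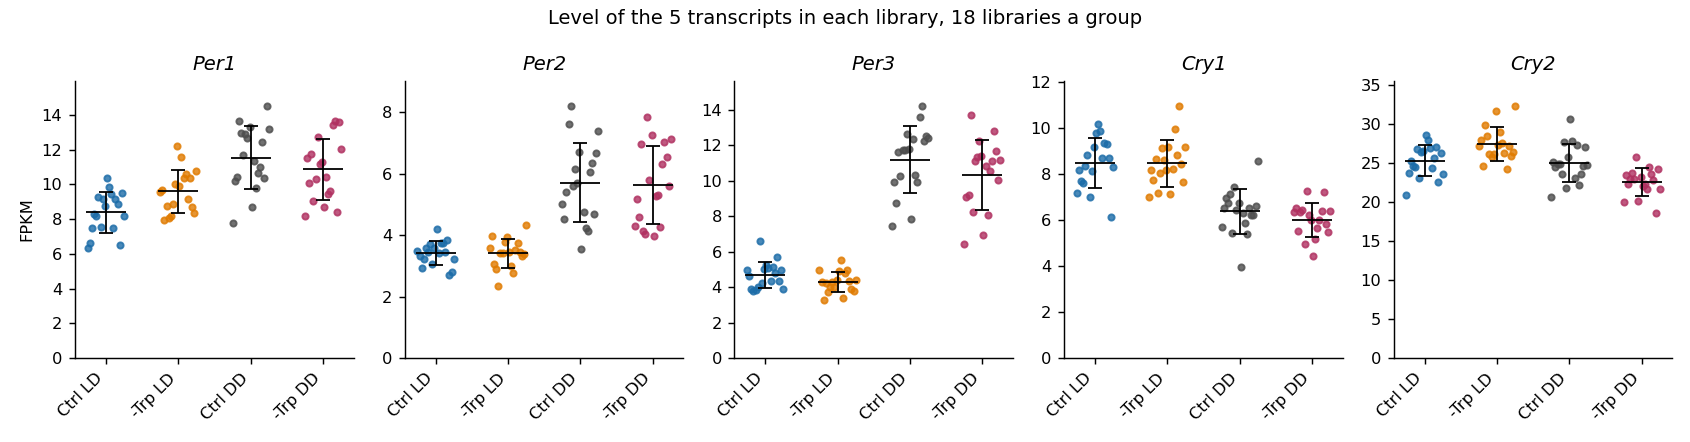
Level of Per1, Per2, Per3, Cry1 and Cry2 (FPKM, linear axes from 0) in each of the 18 libraries of 4 groups, with the mean and SD as black bars. Within each diet every DD library lies above every LD library in Per3 (7.47 to 14.2 against 3.76 to 6.59 FPKM on Ctrl, 6.40 to 13.7 against 3.26 to 5.53 on -Trp), while Cry2 overlaps between all groups.

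The first question was whether the 5 transcripts cycle over the day in each group. In Ctrl LD, JTK_CYCLE, a rank test for a 24 h rhythm, called 4 of the 5 members at p under 0.05, against 7.11% of all rows, and 3 after median-of-ratios scaling of the FPKM, without Per3 (exact p = 0.0916). The p-values from its exact null distribution over 18 libraries were 0.00795 for Cry1, 0.0147 for Per1, 0.0196 for Cry2, 0.0441 for Per3 and 0.143 for Per2. None remained after Benjamini-Hochberg adjustment over all rows, where the JTK_CYCLE values of the members ran from 0.366 to 0.945 and 0.0844% of all rows passed.

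Per1 in Ctrl LD was lowest at ZT0, with 6.33, 6.65 and 7.50 FPKM in the 3 mice, and highest at ZT12, with 10.4, 9.85 and 9.44 FPKM. These times do not overlap, and the peak mean was 1.45 times the trough mean. Both times were picked as highest and lowest from the same values, so their separation is a description and not a test. It also occurred in members that were not called, such as Per2 in -Trp DD. Cry1 gave 7.17, 8.19 and 7.71 FPKM at ZT0 and 9.78, 10.2 and 9.89 FPKM at ZT12, a ratio of 1.30 between the means. At ZT20, replicate 2 of Ctrl LD stood apart in Cry1 at 6.13 FPKM, the lowest of the group, beside 8.72 and 8.32 in the other 2 mice.

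Cry2 went from 20.99, 23.8 and 25.3 FPKM at ZT0 to 28.6, 28.0 and 26.9 at ZT12, a ratio of 1.19. Per3 had its highest mean at ZT8, at 6.59, 4.21 and 5.02 FPKM, and its lowest at ZT4, at 3.76, 3.82 and 4.02 FPKM, with a ratio of 1.36. Per2 was highest at ZT12 (4.19, 3.42 and 3.75 FPKM) and lowest at ZT20 (2.70, 2.79 and 3.23), a ratio of 1.30. The highest time means of the 5 thus lay at ZT8 or ZT12, a description that for Per2 rests on no call.

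A cosine of 24 h fitted to log2(FPKM + 0.5) placed the 5 peaks of Ctrl LD close to each other, between 10.9 and 13.3 h. Per2 peaked at 10.9 ± 1.29 h, Per1 at 11.5 ± 1.07 h, Cry2 at 11.6 ± 1.24 h, Cry1 at 12.4 ± 1.01 h and Per3 at 13.3 ± 1.66 h (estimate ± SE). Amplitudes, from the fitted mean to the peak on the log2 scale, were 0.18 ± 0.05 for Per1, 0.15 ± 0.04 for Cry1, 0.15 ± 0.06 for Per3, 0.12 ± 0.04 for Per2 and 0.10 ± 0.03 for Cry2. Unadjusted limma values of this fit passed for 4 members, with Per2 (0.0285) in and Per3 (0.0984) out, against 14.5% of all genes tested. None passed after adjustment, where the lowest adjusted p was 0.160, for Cry1, and 0.743% of all genes passed. With time of day as a factor, 2 members passed unadjusted, Per1 (0.0249) and Cry1 (0.0273), against 13.2% of all genes. Single libraries decided some of these calls. The call of Per3 by JTK_CYCLE was lost in 11 of the 18 exact tests that left out 1 library (up to p = 0.147). That of Cry2 was lost in 4 (up to 0.0700) and that of Per1 in 3 (up to 0.0535). The count of called members was 1 without replicate 1 or replicate 2 of ZT12, and 2 without replicate 1 of ZT0.

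In -Trp LD, JTK_CYCLE called 0 of the 5 members, against 7.42% of all rows, with exact p = 0.0724 for Per1, 0.143 for Cry1, 0.458 for Per3 and 1 for both Per2 and Cry2. The cosine fit in limma passed unadjusted for 1 of them, Per1 (0.0438), against 16.3% of genes tested. With time of day as a factor 0 members passed unadjusted (lowest 0.119, for Per1), against 11.8% of all genes, while Per1 passed (0.0244) without the library of low SCN markers at ZT20. Per1 was lowest at ZT4, with 8.73, 8.06 and 8.19 FPKM, and highest at ZT12, with 9.91, 11.6 and 10.3 FPKM. These did not overlap, but both times were picked from the same values. The fitted peak of Per1 lay at 13.04 ± 1.40 h. Cry1 was lowest at ZT0 (7.01, 8.20 and 7.75 FPKM) and highest at ZT16 (9.95, 8.84 and 10.96 FPKM), with a peak fitted at 15.0 ± 1.56 h. Cry2 had an amplitude of 0.02 ± 0.05 on the log2 scale.

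**Figure D2:**
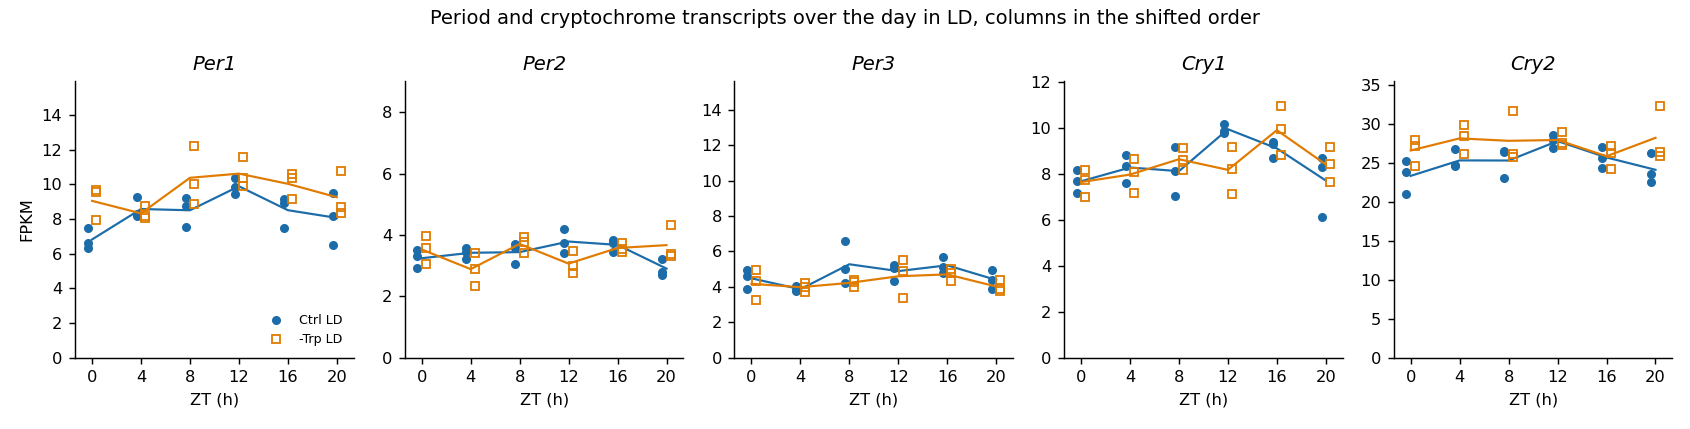
FPKM of the 5 transcripts at 6 times in LD (ZT, hours after lights on), for Ctrl LD (filled circles) and -Trp LD (open squares), 3 libraries a time; lines join the means. In Ctrl LD the means of Per1, Cry1 and Cry2 are highest at ZT12 and lowest at ZT0.

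A rhythm called on one diet alone is not a difference between the diets, so that difference was tested. In limma, the joint test of diet by cosine and sine called 0 of the 5 members in LD and 0 at an unadjusted p under 0.05, while 3.22% of all genes passed unadjusted and 0% after adjustment. The smallest unadjusted p was 0.0970, for Per2, and the adjusted p was 0.9997 for all 5. In DD the same test called 0 members, and 0 at an unadjusted p under 0.05 (lowest 0.181, for Per2), against 0.0344% of all genes after adjustment and 6.83% before.

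In DD no member was called rhythmic by JTK_CYCLE on either diet. The test called 0 of 5 in Ctrl DD, where 4.92% of all rows passed, and 0 of 5 in -Trp DD, where 1.42% passed. The lowest p in Ctrl DD was 0.458, for Per3, and all 5 were at 1 in -Trp DD, from the same exact null distribution. The cosine fit in limma had 0 members under an unadjusted p of 0.05 in either group, against 8.24% of all genes in Ctrl DD and 2.23% in -Trp DD.

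The time means of the Period genes in Ctrl DD are given as a description, since JTK_CYCLE called none of them. Mean FPKM of Per2 in the 6 times from CT0 to CT20 was 4.98, 7.15, 6.18, 4.19, 5.52 and 6.25. Its highest and lowest means, picked as such from these values, were at CT4 and CT12. The 3 libraries were at 7.64, 8.20 and 5.60 FPKM at CT4 and at 3.56, 4.77 and 4.25 at CT12, without overlap. The ratio of these means was 1.70, the largest of any member and group, or 1.58 without the CT12 library of low SCN markers. For Per1 the means were 9.47, 12.8, 12.97, 9.95, 11.4 and 12.7 FPKM, and for Per3 8.71, 11.2, 12.1, 10.2, 12.6 and 12.4 FPKM. Each of the 3 had its 2 lowest means at CT0 and CT12, 12 h apart. Without the CT12 library of low SCN markers this still held for Per1 and Per2, while the CT12 mean of Per3 became 11.3 FPKM, above that at CT4. Tissue markers varied with time in the same group, where JTK_CYCLE called 4 of 10 SCN markers (Vipr2, exact p = 0.00412, with Nms and Rgs16 next), 3 of 9 markers of other hypothalamic neurons (Trh, 0.000104) and 2 of 6 of choroid plexus and ependyma. Over all rows 4.92% passed there. Summed SCN markers were at 157 FPKM in CT0 replicate 1 and at 48.3 in CT12 replicate 1. Their part in the means of the Period genes was not tested.

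A limma test with time of day as a factor, chosen after these values were seen, gave unadjusted p-values in Ctrl DD of 0.00764 for Per1, 0.0195 for Per3, 0.0196 for Per2, 0.220 for Cry1 and 0.647 for Cry2. That is 3 of 5, against 7.21% of all genes, and the adjusted p was 0.684 for each of the 3. Without the CT12 library of low SCN markers, Per1 (0.0123) and Per3 (0.0110) still passed and Per2 did not (0.0552). In -Trp DD the same test had no member under 0.05, with Per2 at 0.0723, Per3 at 0.0967 and Cry1 at 0.112, against 5.60% of all genes.

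The 2 lowest means of Per3 in -Trp DD were again at CT0 (6.40, 9.10 and 9.18 FPKM) and CT12 (6.94, 10.8 and 8.06 FPKM). Cry1 was lowest at CT12 on both diets, at 3.95, 6.32 and 5.88 FPKM in Ctrl DD and at 4.44, 5.18 and 5.65 FPKM in -Trp DD. The 3.95 is from the library of low SCN markers, without which the Ctrl DD mean at CT12 was 6.10 FPKM and the lowest was at CT16 (6.05). Cry2 stayed between 21.5 and 23.7 FPKM in the time means of -Trp DD. In both groups the limma comparison of rhythm between LD and DD called no member after adjustment. On Ctrl 2 of 5 passed unadjusted, Cry1 (0.00603) and Per2 (0.0433), and 0 of 5 on -Trp, against 14.7% and 8.60% of all genes. After adjustment 0.0833% of all genes passed on Ctrl and 0.0278% on -Trp.

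**Figure D3:**
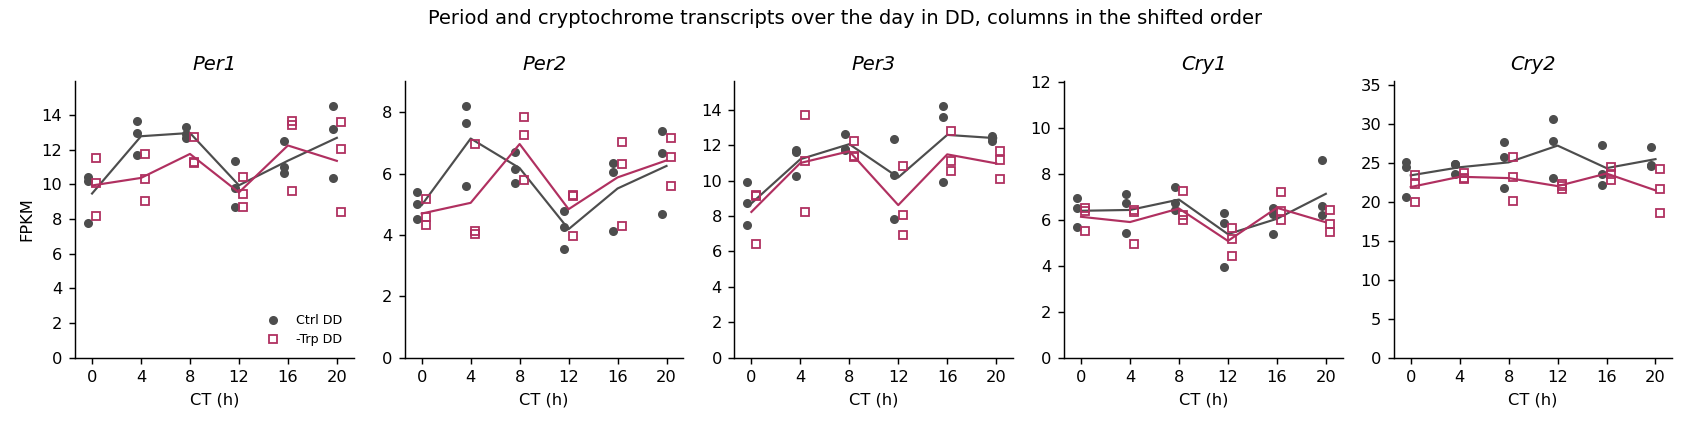
FPKM of the 5 transcripts at 6 circadian times in DD, for Ctrl DD (filled circles) and -Trp DD (open squares), 3 libraries a time; lines join the means. In Ctrl DD the means of Per1, Per2 and Per3, none called by JTK_CYCLE, are lowest at CT0 and CT12. Without the CT12 library of low SCN markers this no longer holds for Per3, with 11.3 FPKM at CT12 and 11.2 at CT4.

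The second question was whether the diet moved the level of the repressors. In LD, Per1 was higher on -Trp than on Ctrl by 0.21 ± 0.05 on the log2 scale, or 15.3% (adjusted p = 0.0420, limma, 36 libraries, estimate ± SE). It ran from 6.33 through a median of 8.52 to 10.4 FPKM in Ctrl LD and from 7.94 through 9.61 to 12.2 in -Trp LD, and 4 of the 18 -Trp libraries were above every Ctrl library. This was 1 of 5 members called, against 1.11% of all genes called and 0.566% called higher. The call was lost in 23 of 36 fits that left out 1 library (adjusted p up to 0.0747), on FPKM as deposited (0.0761), in 1 fit over all 72 libraries (0.0605) and without the libraries of low SCN markers (0.0603). Summed SCN markers had a median of 541 FPKM in Ctrl LD and 370 in -Trp LD, beside 483 and 327 for Avp alone. Of the 10 markers 0 were called, and their part was not tested.

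Cry2 was higher in -Trp LD by 0.14 ± 0.04 (9.90%, adjusted p = 0.0771), which did not pass. The other 3 members were near 0 in LD, with intervals of 95% confidence from -0.10 to 0.12 for Per2, from -0.22 to 0.03 for Per3 and from -0.07 to 0.11 for Cry1.

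In DD, Cry2 was the 1 member called, lower on -Trp by 0.14 ± 0.04 on the log2 scale (-8.94%, adjusted p = 0.0290, limma), against 13.4% of all genes called and 6.18% called lower. The medians were 24.8 FPKM in Ctrl DD and 22.9 in -Trp DD, and 3 of the 18 -Trp libraries were below every Ctrl library. The adjusted p rose to between 0.0506 and 0.0515 without any 1 of 3 -Trp DD libraries (CT0 replicate 1, CT12 replicate 3, CT20 replicate 1). Per1 (-0.08 ± 0.06), Per2 (-0.01 ± 0.09), Per3 (-0.11 ± 0.06) and Cry1 (-0.07 ± 0.05) had adjusted p-values from 0.241 to 0.963. Markers of oligodendrocytes moved in the same comparison, with 2 of 7 lower on -Trp DD and summed medians of 1195 against 1499 FPKM, and transcript length moved with it too, with a median log2 difference of 0.08 in the bin of the shortest transcripts and -0.05 in that of the longest among 5 bins of equal number, and 9.15% of the bin of Cry2 called lower. The part of either in the Cry2 result was not tested.

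The effect of the diet on Per1 and on Cry2 differed between LD and DD by the interaction term. For Per1 the difference of the effects, DD minus LD, was -0.28 ± 0.08 (adjusted p = 0.0234), and for Cry2 it was -0.27 ± 0.06 (adjusted p = 0.00226, limma, 72 libraries). These were 2 of 5 members, both lower, against 7.70% of all genes called and 5.37% called lower, and both calls remained in each of the 72 fits without 1 library. For Per2 (-0.02 ± 0.10), Per3 (-0.01 ± 0.09) and Cry1 (-0.09 ± 0.07) the adjusted p-values were 0.931, 0.943 and 0.431. Markers of other hypothalamic neurons had 2 of 9 genes called higher by the same term and SCN markers 1 of 10 (Avp, 1.01), and their part was not tested.

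At single times no member differed between diets after adjustment, with 3 mice against 3. Of the 30 comparisons of a member at a time in each lighting, 5 in LD and 3 in DD had an unadjusted limma p under 0.05, which 6.32% of all gene comparisons had in LD and 11.4% in DD. Per1 at ZT0 was at 9.56, 9.65 and 7.94 FPKM in -Trp LD and at 6.33, 6.65 and 7.50 in Ctrl LD, without overlap, a log2 difference of 0.41 ± 0.13 (limma, adjusted p = 0.983). Per2 at CT4 was at 6.96, 4.14 and 4.05 FPKM in -Trp DD and at 7.64, 8.20 and 5.60 in Ctrl DD, a difference of -0.54 ± 0.19 (limma, adjusted p = 0.151). Over the 6 times together 0.00825% of all gene comparisons passed after adjustment in LD and 1.46% in DD.

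**Figure D4:**
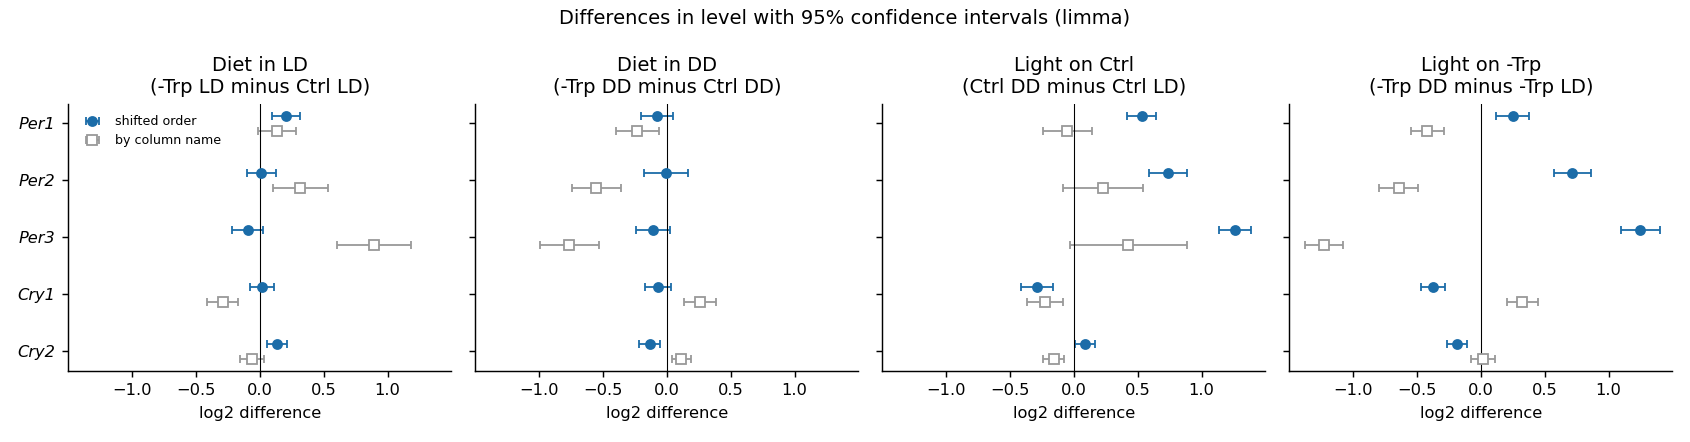
Difference in level of each transcript (log2 scale, limma estimate with its 95% confidence interval) for the diet in LD and DD and for DD against LD on each diet. Blue circles give the shifted order of the columns and grey squares the order by column name; Per3 on -Trp is at 1.25 in the first and at -1.23 in the second.

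The third question was how levels differed between LD and DD, where light and the split of summed FPKM cannot be told apart. On both diets Per3 was higher in DD without overlap of any library. It ran from 3.76 through a median of 4.72 to 6.59 FPKM in Ctrl LD and from 7.47 through 11.7 to 14.2 in Ctrl DD. On -Trp it ran from 3.26 through 4.29 to 5.53 in LD and from 6.40 through 10.96 to 13.7 in DD. The log2 difference was 1.26 ± 0.06 on Ctrl (2.40-fold, adjusted p = 5.04e-18) and 1.25 ± 0.08 on -Trp (2.38-fold, adjusted p = 8.72e-16, limma). Such a separation upwards was found in 6.56% of all genes on Ctrl and 5.71% on -Trp.

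Per2 rose as well, from 2.70 through 3.45 to 4.19 FPKM in Ctrl LD to 3.56 through 5.65 to 8.20 in Ctrl DD, where 16 of 18 libraries were above every LD library. Its log2 difference was 0.74 ± 0.07 on Ctrl (1.66-fold, adjusted p = 6.04e-11) and 0.72 ± 0.07 on -Trp (1.64-fold, adjusted p = 6.80e-11). Per1 was 1.45-fold higher on Ctrl (0.53 ± 0.06, adjusted p = 2.81e-10) and 1.19-fold on -Trp (0.25 ± 0.06, adjusted p = 0.000607). Its LD and DD ranges overlapped on both diets.

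Cry1 fell, by 0.29 ± 0.06 on the log2 scale on Ctrl (adjusted p = 8.36e-05) and by 0.37 ± 0.05 on -Trp (adjusted p = 8.94e-09). It ran from 7.01 through 8.33 to 10.96 FPKM in -Trp LD and from 4.44 through 6.12 to 7.27 in -Trp DD, where 16 of 18 libraries were below every LD library. Cry2 fell by 0.19 ± 0.04 on -Trp (adjusted p = 8.27e-05). On Ctrl it was higher by 0.09 ± 0.04 (adjusted p = 0.0448), but this direction turned on FPKM as deposited (-0.017, adjusted p = 0.692), and the adjusted p was 0.0517 with the replicate number as a block. The call was lost in 19 of 36 fits that left out 1 library, most of all without the Ctrl DD library of low SCN markers (0.07, adjusted p = 0.0795). With Cry2 on Ctrl counted, all 5 members passed on each diet, against 78.8% of all genes on Ctrl (37.8% higher and 41.0% lower in DD) and 79.6% on -Trp (37.9% and 41.7%).

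The size of these changes moved with transcript length. Genes were put in 5 bins of equal number by length. On Ctrl, the bin of the longest transcripts, which holds Per2 and Per3, had a median log2 difference of 0.45, and 78.5% of it was called higher in DD. The next bin, with Per1 and Cry2, had a median of 0.12 and 49.8% higher, and the middle bin, with Cry1, had a median of -0.03 and 39.8% lower. The bin of the shortest transcripts had a median of -0.45. On -Trp the medians for the bins of Per2 and Per3, of Per1 and Cry2, and of Cry1 were 0.39, 0.08 and -0.03.

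Tissue markers differed between LD and DD too, where 78.8% of all genes were called on Ctrl and 79.6% on -Trp. Of 7 oligodendrocyte markers 6 were lower in DD on Ctrl and 7 on -Trp, with summed medians of 2410 and 2237 FPKM in LD and 1499 and 1195 in DD. Of 9 markers of other hypothalamic neurons 5 were higher and 3 lower on Ctrl and 6 and 3 on -Trp, among them Agrp (3.84 on Ctrl and 4.45 on -Trp, log2) and Crh (-2.68 and -1.83). Of 10 SCN markers 3 were higher and 6 lower on Ctrl, and 3 and 1 on -Trp. The part of these markers, of transcript length and of the 2 ranges of summed FPKM in the change of the members was not tested.

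The 1 DD library in the higher range of summed FPKM, at 411944, had 8.22 FPKM of Per3, above all 18 -Trp LD libraries, 4.14 of Per2 and 9.04 of Per1, both within the -Trp LD range, and 6.44 of Cry1, below that range. Ratios of 2 genes within a library do not depend on how libraries are scaled, but they can still move with transcript length. The longest transcripts of Per3 and Cry1 have 5999 and 3026 nt, and these 2 genes lie in different length bins. Per3 rose and Cry1 fell in DD on both diets, so a higher ratio of the pair in DD follows from the levels above. No share of other gene pairs was taken, and the part of length in the ratios was not tested. The ratio of Per3 to Cry1 in FPKM ran from 0.440 to 0.938 in Ctrl LD and from 1.25 to 2.27 in Ctrl DD. On -Trp it ran from 0.395 to 0.774 in LD and from 1.004 to 2.24 in DD, and it was 1.27 in the DD library of the higher range. The ratio of Per3 to Per1 was 0.569 ± 0.126 in Ctrl LD and 0.9746 ± 0.123 in Ctrl DD (mean ± SD, n = 18).

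**Figure D5:**
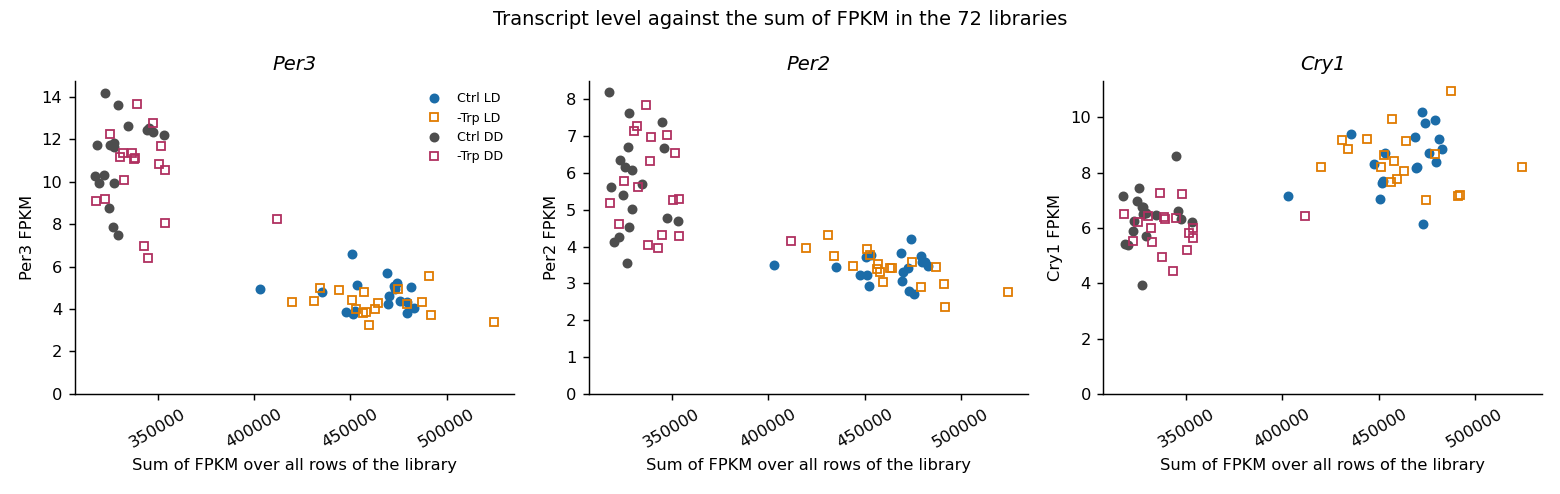
FPKM of Per3, Per2 and Cry1 against the sum of FPKM over all rows, 1 point for each of the 72 libraries, by group. LD libraries and 1 -Trp DD library lie at 403066 or above and the other 35 DD libraries at 353587 or below, so level and summed FPKM change together.

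By column name the results of the members were others. The exact test of JTK_CYCLE then called 3 of 5 in Ctrl LD (Per2 and Cry1 at p = 0.00203, Cry2 at 0.0259), against 37.8% of all rows. It called Cry1 alone in Ctrl DD (0.00795, 27.6% of rows) and in -Trp DD (0.00203, 6.68% of rows). It called 0 in -Trp LD, where 2.48% of rows passed. Diet differences by column name had 3 of 5 members called in LD (65.5% of all genes) and 5 of 5 in DD (70.9%). Per3 then differed by 0.89 ± 0.14 in LD and by -0.76 ± 0.11 in DD on the log2 scale. Light differences had 2 of 5 called on Ctrl (5.68%) and 4 of 5 on -Trp (78.0%), the latter each in the opposite direction to the shifted order, and the interaction 5 of 5 (77.6%). Differences of rhythm had 2 of 5 called between diets in LD (52.0%), 2 in DD (34.8%), 4 between LD and DD on Ctrl (72.5%) and 0 on -Trp (0.0139%). Of the 30 comparisons at single times, 12 were called in LD (35.6%) and 14 in DD (37.4%). In this order Ctrl LD holds 12 libraries of the higher and 6 of the lower range of summed FPKM and Ctrl DD 6 and 12, so times within a group differ in range.

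Of the other clock genes, the activators and the ROR and REV-ERB loop (9 genes) had 3 members called rhythmic by JTK_CYCLE in Ctrl LD and 2 in -Trp LD. Over all rows, 7.11% passed in Ctrl LD and 7.42% in -Trp LD. Nr1d1, which encodes REV-ERBα, a repressor of Bmal1 transcription, had exact p = 0.00139 and 0.000265, and Arntl, which encodes BMAL1, 0.0196 and 0.00795. Rora, an activator of the same gene, was the third in Ctrl LD (0.0441). Among 8 output factors, 4 were called in each LD group. Dbp, which binds D-boxes, had exact p = 6.47e-06 in Ctrl LD and 0.00139 in -Trp LD, and Ciart, a repressor of CLOCK and BMAL1, 2.13e-05 and 0.000412.

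In DD these lists had 1 gene called on each diet, Timeless on Ctrl (exact p = 0.000412) and Ciart on -Trp (0.00576), and none of the 9 activators and loop genes. Over all rows 4.92% passed in Ctrl DD and 1.42% in -Trp DD, beside 7.11% in Ctrl LD and 7.42% in -Trp LD. The counts of the next lists are a description beside these shares. Of the 9 kinases and phosphatases that act on PER and CRY, 1 was called in Ctrl LD, -Trp LD and Ctrl DD, Ppp1cc, a catalytic subunit of protein phosphatase 1, and 2 in -Trp DD, Csnk2b (0.0109) and Csnk1a1 (0.0147), genes of casein kinases. Of the 9 genes listed as ubiquitin ligases and deubiquitinases, Usp2 was called in Ctrl LD (0.00795) and Cdt1 in -Trp LD (0.00412). Cdt1, which the list holds, encodes a DNA replication licensing factor and is itself neither a ligase nor a deubiquitinase. Of 9 partners of the PER complex, Sfpq was called in Ctrl LD (0.0147) and -Trp LD (3.71e-05), with Suv39h1 (0.000628) in -Trp LD and Hdac1 (0.0147) in Ctrl DD. Of the 10 immediate early genes, 0 were called in Ctrl LD and -Trp DD, 2 in -Trp LD (Arc, Egr2) and 1 in Ctrl DD (Sik1).

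Diet changed the level of few of these genes. In LD, limma called 0 of the 9 activators and loop genes, 0 of 8 output factors, 0 of 9 kinases and phosphatases, 0 of 9 genes of the ligase and deubiquitinase list, 0 of 9 partners and 0 of 8 immediate early genes, where 1.11% of all genes passed. In DD, Bhlhe40, a repressor at E-boxes, was lower on -Trp (-0.17), and Nono (0.12) and Cbx3 (0.12), partners of the PER complex, were higher. Of all genes 13.4% were called in that comparison. The interaction term called Tef (-0.17), Csnk1d (-0.14), a casein kinase that phosphorylates PER, and Usp7 (-0.12), a deubiquitinase, against 7.70% of all genes.

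More of them differed between LD and DD, as did all genes, of which 78.8% were called on Ctrl and 79.6% on -Trp. On Ctrl, 6 of 9 activators and loop genes were higher in DD and 0 lower, with a list median of 0.25 against -0.02 over all genes on the log2 scale, and on -Trp 7 were higher and 2 lower (median 0.28). Clock rose by 0.79 on Ctrl and 0.86 on -Trp, and Arntl2, a paralog of Arntl, by 1.15 and 1.32. Of 8 immediate early genes tested, 0 were higher on either diet, 4 were lower on Ctrl and 8 on -Trp, among them Dusp1, a phosphatase of MAP kinases (-0.42 and -0.45), and Ier2 (-0.52 and -0.46). Ppp1ca, another catalytic subunit of protein phosphatase 1, fell by 0.54 and 0.67. Over all genes this difference moved with transcript length, from a median of -0.45 in the bin of the shortest to 0.45 in that of the longest on Ctrl. The part of length and of summed FPKM in the values of these lists was not tested.

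The genes whose pattern over the 72 libraries was most like that of a member were ranked by Pearson's r of log2 values centred on the mean of each group, among 14269 genes, as a description. Per2 was closest to other clock genes, with Per1 at 0.596, Nr1d2, which encodes REV-ERBβ, at 0.587 and Cry1 at 0.578. Cry1 had Tsr1, a ribosome biogenesis factor, at 0.648, Bhlhe41, a repressor at E-boxes, at 0.645 and Clint1 at 0.626. Per1 had Tob2 at 0.655, Hif3a at 0.651 and Pcnxl3 at 0.640, with Per2 in rank 13.

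Cry2 had the closest neighbours, Pik3r2 at 0.853, Adgrb2 at 0.825 and Fscn1 at 0.813, none a clock gene. Its r was 0.473 with Per1 (rank 936), 0.041 with Per3, -0.003 with Per2 and -0.067 with Cry1. The r of Cry2 and Per1 differed by group. On Ctrl it was 0.930 under LD, where Pik3r2 was at 0.913, but 0.013 under DD. That DD value includes the CT12 library of low SCN markers, with the highest Cry2 of its group (30.7 FPKM) and a low Per1 (8.68 FPKM, rank 2 from the lowest). The r without this library was not taken, so the difference between groups is a description only. For -Trp the 2 values were 0.626 (LD) and 0.539 (DD). Per3 had Atp10a at 0.738, Med12 at 0.737 and AW549542 at 0.705, and Per2 in rank 78. Within single groups the r of Per2 and Per1 on Ctrl was 0.282 in LD and 0.770 in DD, and on -Trp 0.495 in LD and 0.667 in DD (18 libraries each). The points share their library, its composition and its piece of tissue.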

How the data were processed

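SCN RNA of 72 mice was sequenced by the authors from a stranded poly(A) library kit. Per the labels and the study's methods, reads were trimmed with Trimmomatic, aligned to mm10 with TopHat and quantified per gene with Cufflinks. By their names the deposited tables are 1 a group, while in the shifted order each holds columns of more than 1 group. They hold the resulting FPKM and no counts. Depth is therefore unknown, and no counting error is given. Some symbols have more than 1 row, and the members have 1 each. Each label gives a separate mouse.

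Groups follow the labels, with the columns placed in the shifted order that equals the study's own list (relative tolerance 0.0001), and by column name as the alternative. The study's own p-values were not used. The 5 members and all gene lists were chosen with earlier results of these data known. Named genes are the members, up to 3 genes of each list and comparison with the smallest p past the threshold, the 3 nearest patterns of each member, and libraries that stand apart. One gene of the lists is not reported here.

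JTK_CYCLE (period 24 h, exact null, Bonferroni over 6 lags) was rewritten in Python 3.11.15 with numpy 2.4.6, pandas 2.3.3 and scipy 1.17.1, and run on FPKM as deposited. Levels, rhythms and their differences were tested with limma 3.58.1 (R 4.3.3). Libraries were first scaled by the median of ratios (factors 0.909 to 1.083) and log2(FPKM + 0.5) was taken, genes whose mean was under 0.5 FPKM were left out, and p-values had Benjamini-Hochberg adjustment over all genes and a threshold of 0.05. A fold change on this scale understates that of low genes. Time of day was a factor in tests of level. Both methods were tested on simulated data.

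Same-numbered libraries did not vary together (mean r from -0.02 to 0.00 in each group, with 9 to 13 of 45 pairs over 0.1), so the replicate number does not pair samples. The alternatives were the other column order, a pseudocount of 0.1 or of 1, unscaled FPKM, dropping the filter or raising it to 1 FPKM, a replicate block, 1 fit for all 72 libraries, adjusted JTK_CYCLE p-values, median-of-ratios FPKM, a limma cosine fit and leaving out each library. Time of day as a factor for rhythm, and leaving out the libraries with under 150 FPKM of summed SCN markers, were added after seeing the data. Promoter windows are from RefSeq. Figures were drawn with matplotlib 3.10.9.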

Additional observations from a re-analysis of the deposited data

Results flagged for a closer look

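The effect of the diet on the level of Per1 and of Cry2 differed between LD and DD by the test of the difference itself, the interaction term of the limma fit over all 72 libraries. For Per1 the effect in DD minus that in LD was -0.28 on the log2 scale (adjusted p = 0.0234, 95% interval from -0.44 to -0.12). Its effect was 0.21 in LD, a limma call lost in 23 of 36 fits that left out a library. In DD it was -0.08 and not called (limma, adjusted p = 0.407). For Cry2 the difference was -0.27 (adjusted p = 0.00226, 95% interval from -0.38 to -0.16), from an effect of 0.14 in LD and of -0.14 in DD. The LD effect of Cry2 was itself not called (limma, adjusted p = 0.0771). The interaction term called 7.70% of all genes. By column name, where 77.6% of all genes were called, the difference was -0.37 for Per1, in the same direction, and 0.18 for Cry2, in the opposite one.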

How the results depend on the processing

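Pseudocounts of 0.1 and 1, no filter and a filter at 1 FPKM left every direction and call of the members unchanged in the tests of level and rhythm differences. The order of the columns moved most. By column name the counts of called members were 5 for the interaction, 5 and 3 for the diet in DD and LD, 2 for light on Ctrl, 14 and 12 of 30 at single times in DD and LD, 2 and 2 for diet on rhythm in DD and LD, 4 for light on rhythm on Ctrl, and 1 each for rhythm in -Trp DD and Ctrl DD. The log2 differences that turned direction were 0.55 (Cry1) and 0.18 (Cry2) in the interaction, 0.26 (Cry1) and 0.11 (Cry2) for diet in DD, -0.29 (Cry1), -0.061 (Cry2) and 0.89 (Per3) for diet in LD, 0.33 (Cry1), 0.016 (Cry2), -0.42 (Per1), -0.64 (Per2) and -1.23 (Per3) for light on -Trp, and -0.16 (Cry2) and -0.052 (Per1) for light on Ctrl. The cause was not tested.

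On FPKM as deposited the median light difference of all genes was -0.11 on both diets, against -0.02 after scaling. There the diet called 0 members in LD, with Cry1 at -0.000614 and Per2 at -0.00624, and Cry2 was at -0.017 for light on Ctrl. Diet in LD also called 0 in 1 fit for all 72 libraries and without the libraries of low SCN markers, where Per2 was at -0.019. Light on Ctrl lost Cry2 without those libraries (adjusted p = 0.0795). For rhythm in Ctrl LD, 3 members passed on median-of-ratios FPKM, 0 members passed with adjusted JTK_CYCLE p-values and with the adjusted cosine fit, and 2 with time as a factor. In -Trp LD 1 passed with the unadjusted cosine fit and 1 with time as a factor without the library of low SCN markers. In Ctrl DD 3 passed with time as a factor and 2 without such a library.

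With the replicate number as a block, 3 members were called rhythmic in Ctrl LD (without Per3, p = 0.177 by the exact null distribution of JTK_CYCLE) and 4 for light on Ctrl (without Cry2, adjusted p = 0.0517). The block changed no other call, and the numbers do not pair the samples. Leaving out each library in turn gave 0 to 2 members for diet in LD (moved in 24 of 36 fits), 0 to 1 for diet in DD, 0 to 1 at single times in DD, 0 to 1 for rhythm in -Trp LD and 1 to 4 for rhythm in Ctrl LD. Directions near 0 turned, with ranges from -0.0473 to 0.0193 (Per2) and from -0.0450 to 0.0169 (Per3) in the interaction, from -0.0360 to 0.0306 (Per2) for diet in DD, and from -0.00318 to 0.0395 (Cry1) and from -0.0190 to 0.0350 (Per2) for diet in LD. FPKM give no depth, so no counting error could be set beside these values.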
